A study of Mus musculus with 4 samples.

Results

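The MAP kinase phosphatases and the Zfp36 family of RNA-binding proteins were followed in B220 B cells from the bone marrow and the spleen of Mef2c KO and C57BL/6 mice. The genes were chosen by name, with processed signals of all 4 arrays in view: Dusp1, Dusp2, Dusp4, Dusp5, Dusp6, Dusp10, Dusp16, Zfp36, Zfp36l1 and Zfp36l2. Of these 10 genes, 9 were found in the gene name column of the array, among 28307 genes or names in all, with 14 of 41174 probes. They were 6 phosphatases and the 3 Zfp36 family genes, while Dusp5 has no signal values here and enters only through its upstream sequence. Because the choice used these same signals, every value of the chosen genes below is a description and carries no test.

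The study asked how loss of Mef2c, a MADS-box transcription factor, alters gene expression in developing and mature B cells. Total RNA of freshly isolated B220 cells from naive mice was labelled with Cy3 and hybridised to Agilent 1-colour arrays. There were 4 groups: marrow KO and spleen KO from Mef2c KO mice, and marrow WT and spleen WT from C57BL/6 mice. Each group held 1 array, so no difference between groups has a replicate check, and between-animal spread cannot be given. The promoter or cell type behind the deletion, the strain background of the knockout, the ages and how many animals each array pooled were not given in the sources at hand. Both marrow arrays were on slide 1 and both spleen arrays on slide 2, so slide and tissue cannot be told apart. Within a slide, KO lay at position 1 and WT at position 2, so the same holds for position and genotype.

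MAP kinases relay signals from receptors, including the B cell receptor, through a phosphorylation cascade. The dual-specificity MAP kinase phosphatases remove the activating phosphates from both the threonine and the tyrosine of the kinase, and many of their genes are themselves switched on by the pathway. The Zfp36 proteins carry paired CCCH zinc fingers, bind AU-rich elements in the 3′ ends of short-lived mRNAs and recruit deadenylases, and the kinase MK2 downstream of p38 phosphorylates and restrains them. Zfp36l1 and Zfp36l2 are known to act in early B cell development, and transcripts of several of the phosphatases and of Zfp36 itself hold AU-rich elements.

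AU-rich letters were present in probes of both families, and the stretches are shown because such elements are what the Zfp36 proteins bind. The nonamer TTATTTATT, an AU-rich element as written in DNA, was present on the probe strand in 90 of 41174 probes (0.219%). Among the 14 probes described here it was found in the Dusp1 probe, starting at base 21 of 60, and in the dimmer of both Zfp36 probes, starting at base 12. Each stretch is printed 5′ to 3′ with the nonamer in capitals.
Dusp1: tttttacctTTATTTATTtttgtgtagg
Zfp36: atgacgactTTATTTATTgtattaagat
The files place this Zfp36 probe at chr7:29161940-29161999 on the minus strand of mouse build mm9. The shorter motif ATTTA was far more common (3770 probes, 9.16%) and was also present in the Dusp2 probe.

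Upstream sequence was available from RefSeq (GRCm38.p6) for 8 of the 10 genes: Dusp1, Dusp2, Dusp5, Dusp6, Dusp10, Dusp16, Zfp36 and Zfp36l1. The 6 motifs named below were searched on both strands from 250 bases before to 50 after the start, and in all 32851 windows of the same 300 bases. Printed below are the upstream 250 bases of 3 genes that held a match and were at least 2-fold apart in the spleen. They are in gene orientation with the match in capitals. These 3 genes were picked by their spleen values, so a match beside a difference follows from that choice. The Dusp1 window, at chr17:26508473-26508722 on the minus strand, held the cyclic AMP response element TGACGTCA 143 bases before the start, a motif in 1.79% of all windows. The Zfp36 window, at chr7:28379229-28379478 on the minus strand, held a CArG box, the motif bound by serum response factor, 58 bases before the start (1.63% of all windows). The Dusp16 window, at chr6:134792629-134792878 on the minus strand, held a MEF2 box 57 bases before the start (3.19% of all windows).
Dusp1: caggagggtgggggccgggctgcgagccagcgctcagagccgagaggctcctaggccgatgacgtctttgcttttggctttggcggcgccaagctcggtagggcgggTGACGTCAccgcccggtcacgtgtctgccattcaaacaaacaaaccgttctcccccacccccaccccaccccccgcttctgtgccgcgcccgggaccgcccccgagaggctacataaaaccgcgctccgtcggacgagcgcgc
Zfp36: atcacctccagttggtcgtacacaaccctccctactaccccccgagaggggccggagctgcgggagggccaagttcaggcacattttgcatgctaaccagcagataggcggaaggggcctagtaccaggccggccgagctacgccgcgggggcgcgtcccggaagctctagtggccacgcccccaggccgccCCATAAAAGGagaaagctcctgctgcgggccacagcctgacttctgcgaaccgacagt
Dusp16: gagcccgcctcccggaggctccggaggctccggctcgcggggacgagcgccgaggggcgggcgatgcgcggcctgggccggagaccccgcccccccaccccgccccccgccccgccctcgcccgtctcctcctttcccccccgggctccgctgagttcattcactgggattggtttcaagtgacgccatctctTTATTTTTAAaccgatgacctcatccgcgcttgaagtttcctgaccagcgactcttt
The Zfp36l1 window held an AP-1 motif, TGANTCA, 129 bases before the start (7.81% of all windows) and TATAAA 29 bases before it (13.6%). The Dusp5 window held CArG boxes at 82 and 72 bases before the start. The kB site, present in 4.51% of all windows, had no match in the 8 windows. The MEF2 box was in 1 of the 8 windows. None of the 6 motifs was found in the windows of Dusp2, Dusp6 and Dusp10. A link between motif and expression difference was not tested. A match is a description of these letters, and binding was not measured.

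All 14 probes were well above background on all 4 arrays. Levels below are log2 signal minus the log2 of the array's 75th percentile, so that 0 is the level of a probe at that percentile, and a difference of 1 is 2-fold. A gene with several probes is given by its brightest probe. Levels of different genes are combined or ranked only in the summed marker levels, the classes of brightness and where a probe is called bright or dim. Spleen KO had a 75th percentile of 520, and the remaining arrays had values of 961 to 1008. Repeated spots of a probe within an array gave a difference between arrays an SD of 0.0967 in the spleen and 0.108 in the marrow, which covers spot noise only. The 12 B cell markers were above background on all 4 arrays. Markers of other cells were also present: the summed linear level of 14 neutrophil markers, in units of the 75th percentile, was 444 in WT and 1529 in KO marrow, and 11.6 in WT and 146 in KO spleen. For 16 macrophage and monocyte markers it was 122 and 366 in the marrow and 158 and 336 in the spleen. A linear sum is led by the brightest genes. The median KO minus WT difference of these 16 was −0.18 in the marrow, with 7 above and 9 below 0. There Itgam, Ly6c2 and Lyz2 differed by 3.53, 2.88 and 1.66, and Cd5l and Siglec1 by −1.79 and −1.36. In the spleen the median was 1.24, with 12 above and 4 below 0. Of 2 Mef2c probes, the brighter (chr13:83802754-83802813, mm9) had KO minus WT differences of 0.32 in the marrow and 1.37 in the spleen, and the dimmer (chr13:83717123-83717182) 0.36 and −0.61. Since the deleted part of the gene is not given, these probes do not check the labels. For 2 probes of 18S ribosomal RNA the KO minus WT difference was −2.43 and −3.56 in the marrow and −7.71 and −12.96 in the spleen, and the part of RNA preparation in the results was not tested. In these bulk samples, fewer cells of a type and less RNA per cell cannot be told apart.

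In the spleen, 5 of the 6 phosphatases, Dusp1, Dusp10, Dusp4, Dusp6 and Dusp16, were at least 2-fold higher in KO than in WT, and Zfp36 was 3.81-fold lower. Among the 19810 genes measured there, 34.2% were at least 2-fold apart, 19.8% with the higher and 14.4% with the lower level in KO. The median difference was 1.5 over the 6 phosphatases and −0.78 over the 3 Zfp36 genes, against 0.27 over all genes measured on both arrays. Before scaling, the spleen signals in WT and KO were 1992 and 3275 for Dusp4, 10975 and 15424.5 for Dusp6, and 513 and 654 for Dusp16. For Dusp2 they were 77466 and 53482. These 4 genes were thus less than 2-fold apart before scaling, with Dusp2 lower in KO. Dusp10 had 646 and 1741. In the marrow, 0 of the 9 genes were at least 2-fold higher and 1, Zfp36l2, was at least 2-fold lower, while 8.32% and 4.9% of 21231 genes were, 13.2% in all. Nothing about the families is read from these counts, since the genes were chosen with the values known.

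**Figure D1:**
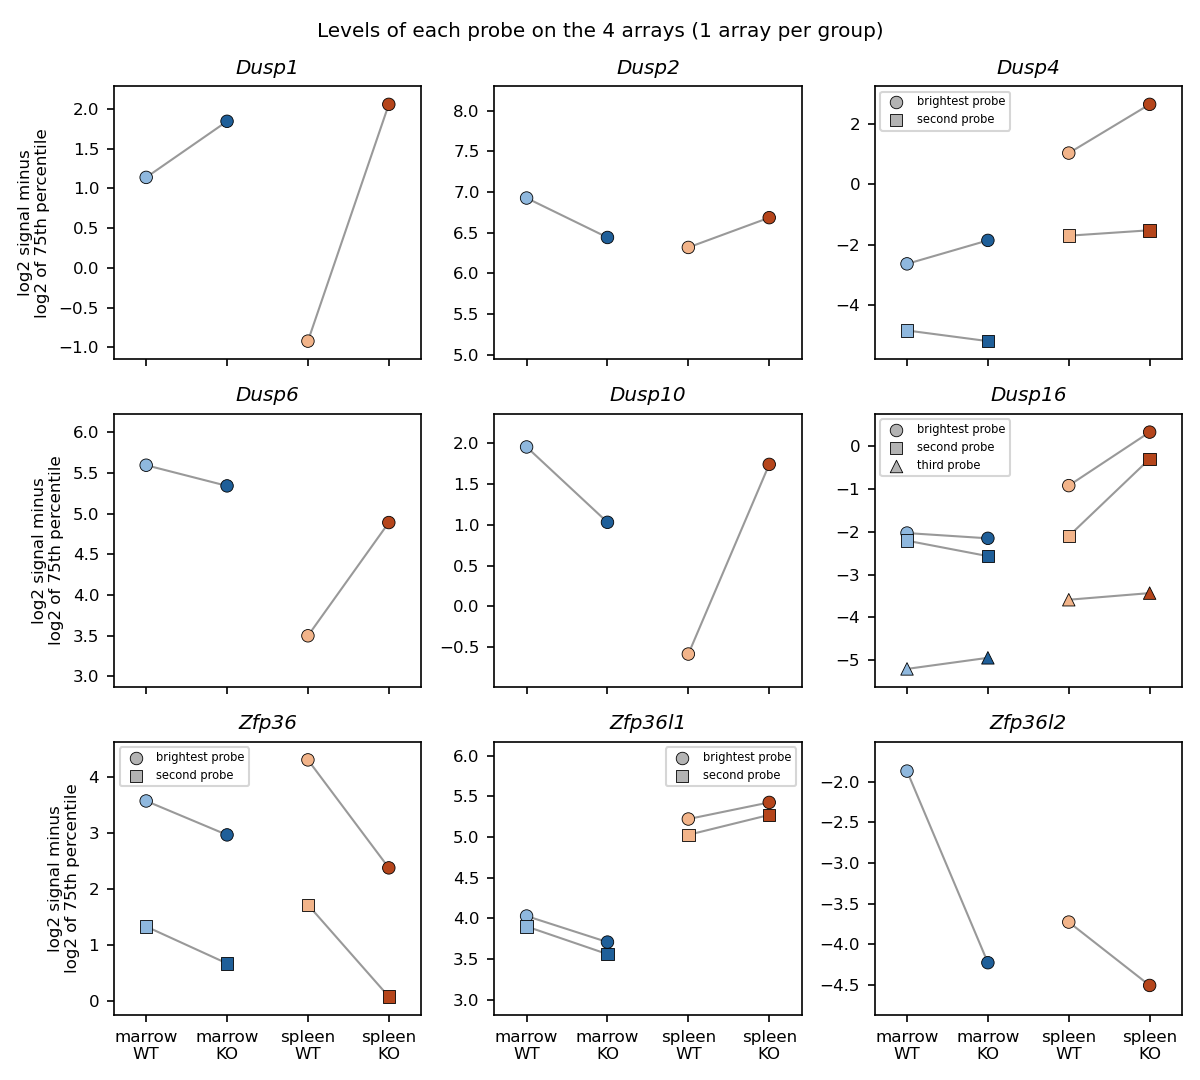
Level of each probe on each array, as log2 signal minus the log2 of the array's 75th percentile (vertical axes differ between genes), with 1 array per group and lines joining WT and KO of a tissue. Spleen WT is the lowest array for Dusp1, Dusp10 and Dusp6, and both Zfp36 probes are lower in KO than in WT in both tissues.

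Dusp1 encodes a nuclear, immediate early phosphatase that acts mainly on p38 and JNK. Its level was 1.14 in WT and 1.84 in KO marrow, and −0.92 in WT and 2.06 in KO spleen. Spleen WT thus stood alone at the low end, and both KO arrays lay within 0.21 of each other. The signal of the same probe, before scaling, was 2114 in WT and 3618 in KO marrow, and 513 in WT and 2162 in KO spleen. The KO minus WT difference was 2.98 in the spleen, a 7.87-fold higher level in KO. In the marrow it was 0.71 (1.63-fold). The spleen difference lay at percentile 99.6 of all genes.

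Dusp2, another nuclear phosphatase named for its presence in activated lymphoid cells, had levels of 6.93 in WT and 6.44 in KO marrow, and 6.32 in WT and 6.68 in KO spleen. Its signals of 53482 to 116833 made it a very bright probe on every array. The groups stayed within a narrow band, with differences of −0.48 in the marrow and 0.37 in the spleen. The spleen direction depended on the scaling and ran from −0.85 under cyclic loess to 0.78 under median scaling.

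Dusp4, a nuclear phosphatase of ERK and JNK, showed the widest gap between tissues of the 9 genes. Its brightest probe, made from a cDNA clone, read −2.64 in WT and −1.86 in KO marrow, and 1.04 in WT and 2.66 in KO spleen. Both spleen arrays lay above both marrow arrays, by 3.68 in WT (12.8-fold) and 4.52 in KO (22.9-fold). The KO minus WT difference on this probe was 1.62 (3.07-fold) for the spleen and 0.78 for the marrow. A second probe, 2761 bases away and made from the reference transcript, gave the same tissue order, with 3.15 in WT and 3.68 in KO, but genotype differences of only 0.18 in the spleen and −0.35 in the marrow. The higher Dusp4 in spleen KO therefore rests on 1 of 2 probes, and the median over probes was 0.90.

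Dusp6 encodes the cytoplasmic phosphatase of ERK and is a common readout of ERK activity. Its levels were 5.60 in WT and 5.34 in KO marrow, and 3.50 in WT and 4.89 in KO spleen. As with Dusp1, spleen WT was the lowest array. The spleen difference was 1.39 (2.62-fold) and the marrow difference −0.25. Under quantile normalization the spleen difference was 0.66 and under cyclic loess 0.47, both below 2-fold.

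Dusp10, a phosphatase of JNK and p38, had levels of 1.96 in WT and 1.03 in KO marrow, and −0.59 in WT and 1.74 in KO spleen. Genotype differences had opposite signs: KO was 1.90-fold lower in the marrow (−0.93) and 5.03-fold higher in the spleen (2.33). The highest array was marrow WT and the lowest spleen WT.

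Dusp16, a phosphatase with a preference for JNK, was given by 3 probes. The brightest read −2.03 in WT and −2.15 in KO marrow, and −0.92 in WT and 0.33 in KO spleen. KO minus WT was 1.25 (2.38-fold) in the spleen on this probe, 1.80 on the second and 0.15 on the third. In the marrow the probes gave −0.12, −0.36 and 0.26, so no common direction was seen there. The third probe was the dimmest, with signals of 26.1 to 80.8.

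Zfp36 encodes tristetraprolin, an inducible destabiliser of Tnf and other cytokine mRNAs. Levels of 3.58 in WT and 2.97 in KO marrow, and of 4.31 in WT and 2.38 in KO spleen, were measured. Both KO arrays lay below both WT arrays. As unscaled signals these were 11485 and 7919 in the marrow and 19294.6 and 2713 in the spleen. The difference was −1.93 in the spleen (3.81-fold lower in KO) and −0.61 in the marrow (1.52-fold lower). The second probe, 192 bases away and holding the AU-rich stretch printed above, gave −1.64 and −0.66. Zfp36 was thus lower in KO on both probes and in both tissues, and in the spleen its sign was opposite to that of 5 phosphatases under every way of processing tried and of Dusp2 under all but quantile normalization and cyclic loess.

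Zfp36l1, known from early B lineage cells, had levels of 4.03 in WT and 3.71 in KO marrow, and 5.22 in WT and 5.42 in KO spleen. The spleen arrays were higher than the marrow arrays by 1.19 in WT (2.28-fold) and 1.72 in KO (3.29-fold). Genotype differences were small, −0.32 in the marrow and 0.20 in the spleen, and the spleen sign turned under quantile normalization (−0.53), cyclic loess (−0.68) and centring by probe GC (−0.10). Its second probe, 66 bases away, gave −0.34 and 0.24.

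Zfp36l2, its close relative, was measured by a dim probe with signals of 263 in WT and 53.9 in KO marrow, and 73.3 in WT and 22.9 in KO spleen. The scaled levels were −1.87 and −4.23 in the marrow and −3.73 and −4.51 in the spleen. Marrow WT stood above the other 3 arrays. The marrow difference of −2.35 (5.11-fold lower in KO) lay at percentile 0.245 of all genes, and the spleen difference was −0.78, or 0.17 with normexp background correction. With normexp the marrow difference was −1.5. The probe holds 71.7% G and C bases, the most of the 14 probes, and probes over 50% had a median marrow difference of −0.24.

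**Figure D2:**
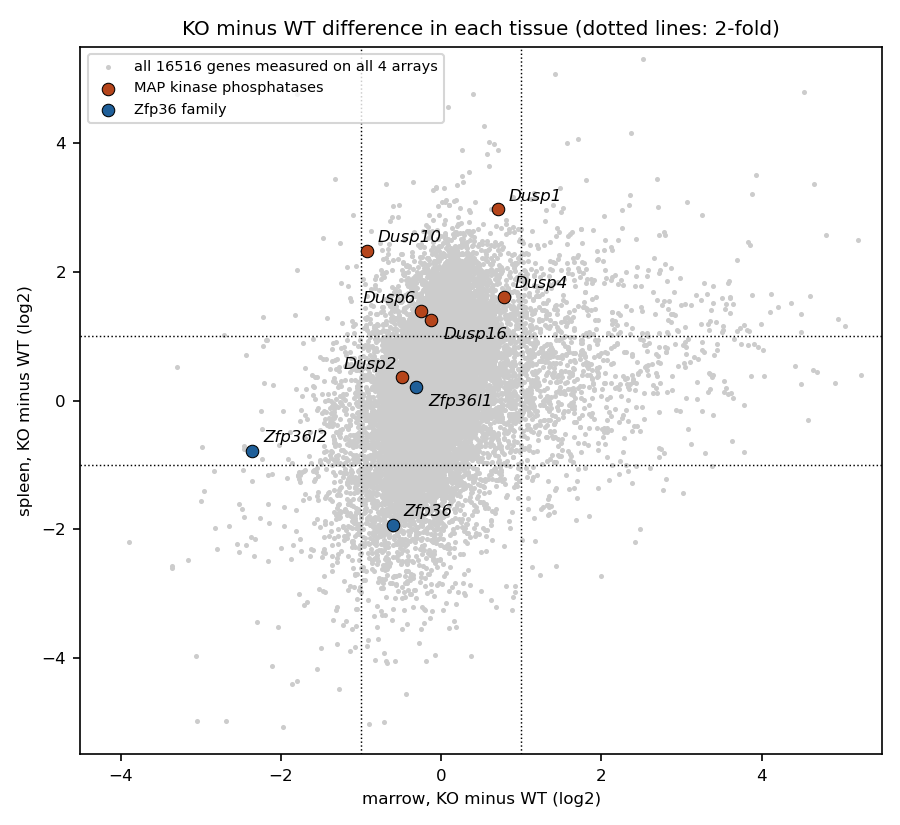
KO minus WT difference (log2) in the spleen against that in the marrow, with 1 grey point for each of 16516 genes measured on all 4 arrays (12 lie outside the axes) and coloured points for the 9 genes. Dusp10 lies at −0.93 and 2.33, Zfp36l2 at −2.35 and −0.78, and 5 phosphatases lie above the upper 2-fold line of the spleen axis.

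Between the tissues of WT mice, 3 of the 9 genes were at least 2-fold higher in the spleen (Dusp4, Dusp16 and Zfp36l1) and 4 at least 2-fold lower (Dusp1, Dusp6, Dusp10 and Zfp36l2). Over 21446 genes the shares were 15.4% and 15.7%, or 31.2% in both directions. Dusp10 was lower in the spleen by 5.83-fold, Dusp6 by 4.27-fold, Dusp1 by 4.17-fold and Zfp36l2 by 3.62-fold. Between the tissues of KO mice the same 3 genes were at least 2-fold higher in the spleen and 0 were at least 2-fold lower, against 15.7% and 13.9% of 20320 genes, or 29.6% in both directions. There the tissue differences were 0.71 for Dusp10, −0.45 for Dusp6, 0.21 for Dusp1 and −0.28 for Zfp36l2. For Dusp16 the WT tissue difference of 1.11 depended on the probe, with 0.11 on the second and 1.62 on the third. These contrasts share arrays with the genotype comparisons (spleen WT enters both), so their values are side by side and are no separate support.

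Differences in the spleen also went with the base composition of the probe. The median KO minus WT difference in the spleen was 0.40 for probes with up to 35% G and C bases, 0.34 for 35 to 40%, 0.17 for 40 to 45%, −0.19 for 45 to 50% and −0.15 above 50%. The brightest probes of the 5 higher phosphatases held 35 to 45%. Over genes by their brightest probe the bin medians were 0.53, 0.47, 0.30, −0.08 and −0.05 in the same order. With each gene centred on that median, the spleen differences were 2.51 for Dusp1, 1.80 for Dusp10, 1.15 for Dusp4, 1.09 for Dusp6, 0.78 for Dusp16 and −2.23 for Zfp36. Dusp16 then fell below 2-fold, and the shares over all genes became 11.6% on the higher and 19.9% on the lower side. The 45 nonamer probes above background on both spleen arrays had a median difference of 0.05, against 0.16 over all probes. They include the Dusp1 and Zfp36 probes. The 90 nonamer probes of the array had a median of 35% G and C bases, against 40% over all probes. The 2 medians are therefore not of like base composition.

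**Figure D3:**
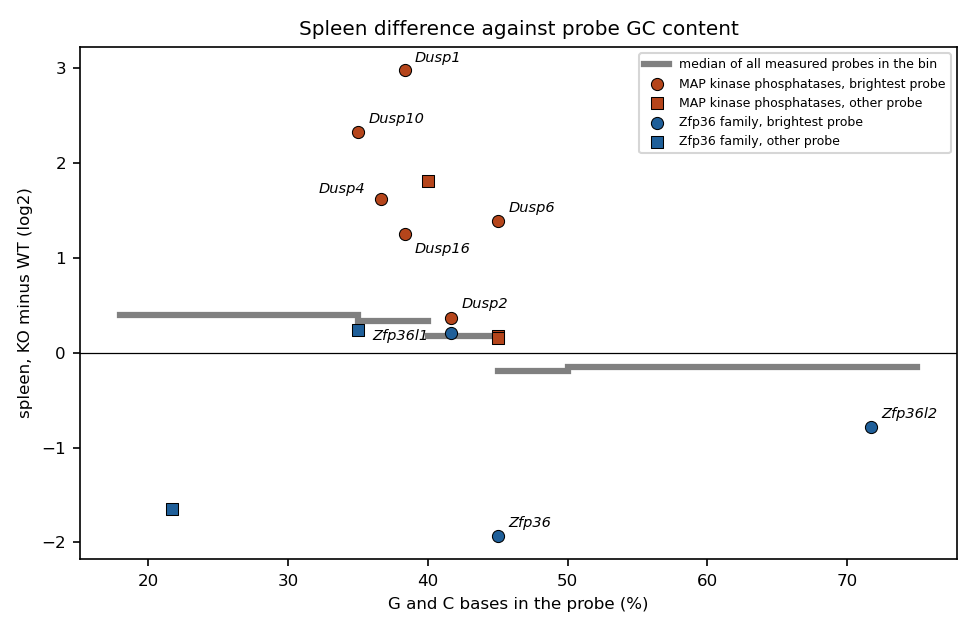
KO minus WT difference in the spleen (log2) against the G and C content of the probe (%), with circles for the brightest probe of each gene, squares for other probes and grey bars for the median of all measured probes in a bin. Dusp1 at 2.98 and Dusp10 at 2.33 lie above the bars of 0.34 and 0.40, and both Zfp36 probes lie below theirs.

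Brightness moved with the spleen difference as well, with medians of 0.08, −0.02, 0.30 and 0.76 from the dimmest to the brightest of 4 equal classes of genes. Dusp6, Dusp2, Zfp36 and Zfp36l1 were in the brightest class, Dusp1, Dusp4 and Dusp10 in the one below it, Dusp16 in the next and Zfp36l2 in the dimmest. Neutrophil markers were at least 2-fold higher in KO for 13 of 14 measured genes in the marrow, with 0 lower, and for 7 of 13 in the spleen, with 1 lower. Mmp8, a granule collagenase, differed by 4.65 in the marrow and 3.36 in the spleen, and Camp by 2.52 and 5.31. Of 16 macrophage markers, 3 were higher and 2 lower in the marrow, and 9 were higher and 1 lower in the spleen, among them Marco at 2.61. Of 12 B cell markers, 0 were higher and 5 lower in the marrow, and 3 were higher and 5 lower in the spleen, while their summed level was 825 in WT and 721 in KO marrow, and 790 in WT and 1263 in KO spleen. Cd79a, a chain of the B cell receptor complex, differed by −1.87 in the marrow and −2.46 in the spleen, and Cd22 by −2.43 and −2.24. T cell markers had 5 of 13 higher and 0 lower in the marrow, and 2 of 14 higher and 2 lower in the spleen. Erythroid markers had 1 of 8 higher and 1 lower in the marrow, and 4 of 9 higher and 0 lower in the spleen. Markers of plasmacytoid dendritic cells had 0 of 10 apart in the marrow, and 2 of 10 higher and 2 lower in the spleen. NK cell markers had 1 of 10 higher and 1 lower in the marrow, and 2 of 10 higher and 3 lower in the spleen. Over all genes the shares were 8.32% higher and 4.9% lower in the marrow, and 19.8% and 14.4% in the spleen. The part of these cells, of brightness and of slide position in the phosphatase and Zfp36 values was not tested.

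Other inducible genes are set beside these values, and a shared cause was not tested. Of 27 measured immediate early genes besides those above, 12 were at least 2-fold higher in spleen KO and 1 lower, with a median of 0.87. The marrow had 2 on the higher and 3 on the lower side and a median of −0.18. Over all genes, the shares for this list and those below were 19.8% higher and 14.4% lower in the spleen. In the marrow they were 8.32% and 4.9%. The spleen median was 0.27 over all genes and 0.76 over the brightest of the 4 classes, and the marrow median over all genes was −0.06. Rgs1, which dampens chemokine receptor signals, differed by 4.77 in the spleen and −1.80 in the marrow. Atf3, a stress-induced transcription factor, differed by 2.54 and 0.41, and Jun by 2.11 and 0.38. Fosl2, a partner of Jun, had the largest measured marrow difference of the list, 3.59, and was at least 3.41-fold higher in spleen KO. Fos differed by 1.41 in the spleen and 1.82 in the marrow, while Egr1, an early gene of the ERK pathway, differed by 0.66 and 0.13.

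Among 13 other dual-specificity phosphatases measured in the spleen, 4 were at least 2-fold higher in KO and 3 lower, with a median of −0.07 (0.00 with genes at their bound). Dusp7, a cytoplasmic ERK phosphatase like Dusp6, differed by −1.73 in the spleen and −0.75 in the marrow. Dusp3 differed by −2.78 and Dusp18 by −2.50 in the spleen, and Dusp23 by −0.58 in the spleen and −0.75 in the marrow. Of 15 measured in the marrow, 0 were 2-fold apart.

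The kinases on which the phosphatases act were mixed. Of 12 MAP kinases measured in the spleen, 3 were at least 2-fold higher in KO and 1 lower, with a median of 0.45. Mapk8, which encodes JNK1, differed by 1.66, and Mapk3, which encodes ERK1, by −2.36. Mapk14, which encodes p38 alpha, differed by 0.54. In the marrow 1 of 14 passed 2-fold, Mapk13, with a difference of 3.82, while Mapk11 and Mapk7 differed by −0.87 and 0.71. The 22 upstream activators had 2 higher and 7 lower in the spleen, among them Map2k7 (−2.95), Map3k11 (−2.38) and Map2k5 (−2.21). In the marrow 0 were higher and 2 lower, Map3k2 (−1.06) and Map2k7 (−1.02). Of 12 feedback inhibitors of Ras and ERK, 2 were higher and 3 lower, with Errfi1 at 2.06 in the spleen and 1.25 in the marrow. Nf1, Rasal3 and Spred2 were the 3 lower ones in the spleen, at −1.17, −1.16 and −1.15.

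On the RNA decay side, 28 deadenylation and decay genes were measured in the spleen, 4 with a level at least 2-fold higher in KO and 3 with one at least 2-fold lower (median 0.30). Cnot1, the scaffold of the deadenylase that Zfp36 proteins recruit, differed by 0.26 in the spleen and −0.05 in the marrow. Exosc7 and Exosc3 of the RNA exosome were 2.44 and 2.28 higher, the helicase gene Ddx6 differed by −3.04 and the exonuclease gene Xrn1 by −1.17. Mapkapk2, the gene of MK2, differed by −1.13 in the spleen and −0.17 in the marrow. Of the 9 genes of such kinases and of 14-3-3 proteins, which hold phosphorylated Zfp36 proteins, 1 was higher (Ywhah, 1.19) and 2 were lower (Ywhaz, −1.33, and Mapkapk2) in the spleen, and 0 were 2-fold apart in the marrow. Among 12 other binders of AU-rich or stem-loop elements, 0 were higher and 2 lower in the spleen: Zc3h12d at −2.48 and Khsrp at −1.88.

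The mRNAs known as Zfp36 family targets had no common direction in the spleen, and more were higher than lower in marrow KO. Of 19 measured, 4 were at least 2-fold higher and 4 lower in spleen KO, and 5 higher and 1 lower in marrow KO. The shares were 21.1% each in the spleen, against 19.8% and 14.4% of all genes. In the marrow they were 26.3% and 5.26%, against 8.32% and 4.9%. Of those measured on both marrow arrays, 11 were above and 6 below 0. The medians were −0.28 in the spleen (0.15 with genes at their bound) and 0.18 in the marrow. Il1b was 4.80 higher in the marrow and 2.57 higher in the spleen, and Ier3 2.21 and 1.36 higher. Ccl3, a chemokine gene, differed by 1.34 in the marrow and 0.59 in the spleen. Tnf differed by 1.33 in the marrow and −1.78 in the spleen. Ccnd3, a cyclin gene of B cell precursors, differed by −2.59 in the spleen and −0.06 in the marrow. Il1b is also abundant in neutrophils, whose markers were higher in both KO arrays. The part of those cells in Il1b, and in the 5 targets higher in marrow KO, was not tested. A link of these targets to the Zfp36 levels was not tested either.

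**Figure D4:**
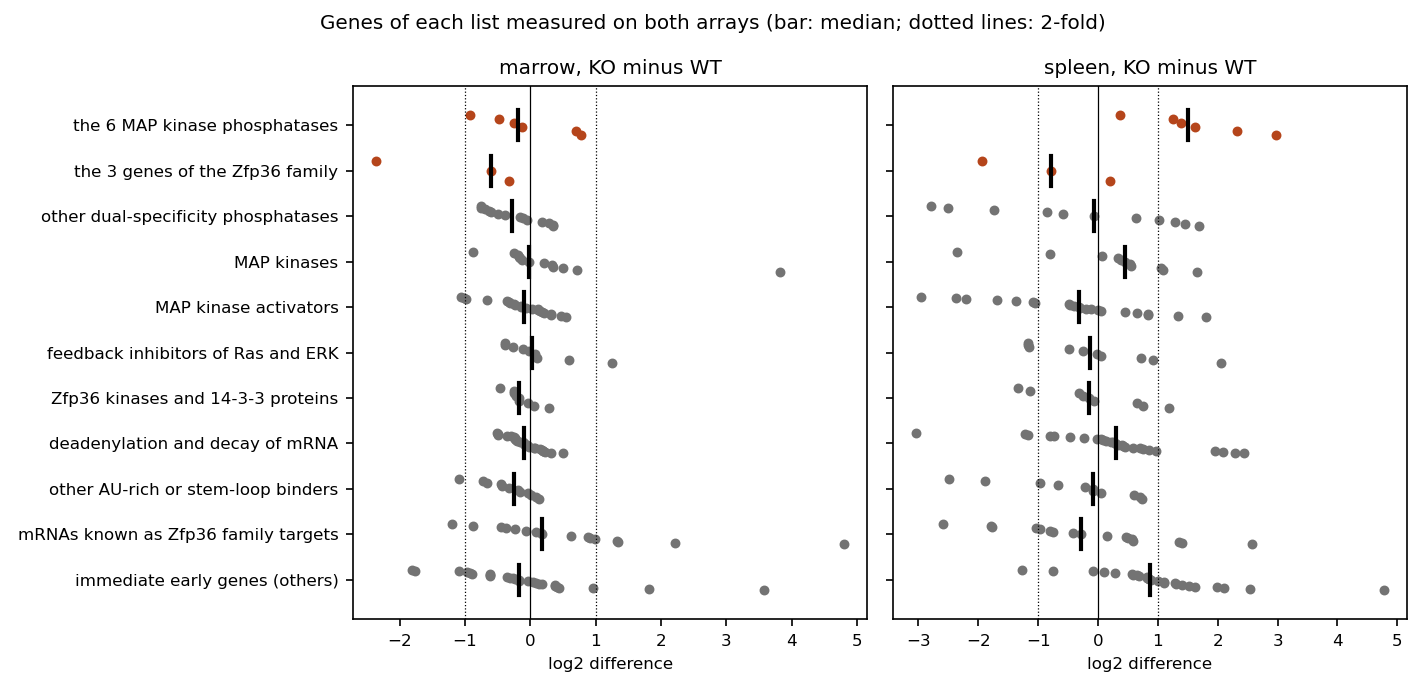
KO minus WT difference (log2) of each gene measured on both arrays, by list, in the marrow (left) and the spleen (right), with bars at the list medians and dotted lines at 2-fold. In the spleen the phosphatase points run from 0.37 to 2.98, and the immediate early genes have a median of 0.87.

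For genes outside the chosen set, limma was fitted over all 4 arrays with tissue and genotype as terms, which leaves 1 residual degree of freedom. It treats the genotype effect as equal in both tissues. At a Benjamini-Hochberg adjusted p under 0.05, 8 of 22059 genes had a higher (0.0363%) and 2 a lower level (0.00907%) in KO. Of the 158 genes of the 9 pathway lists, 0 passed, and the smallest limma adjusted p was 0.0714, for Cxcl2. At an unadjusted limma p under 0.05, 11 of the 158 were higher and 11 lower (6.96% each), against 5.24% and 6.07% of all genes.

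**Figure D5:**
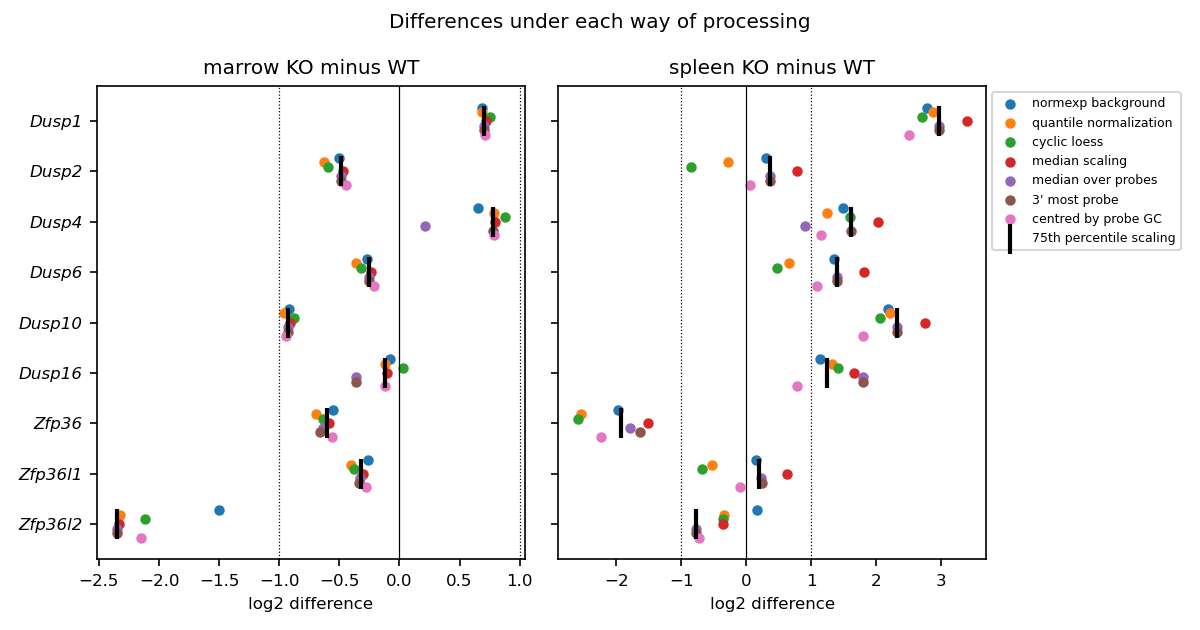
KO minus WT difference (log2) of each gene under each way of processing (coloured points) and under scaling to the 75th percentile (black bars), in the marrow (left) and the spleen (right, on a wider axis). The spleen points of Dusp1 run from 2.51 to 3.39 and those of Zfp36 from −2.60 to −1.51, while those of Dusp2 and Zfp36l1 lie on both sides of 0.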

How the data were processed

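Intensity values were deposited for 4 arrays, with 1 array in each of the 4 groups that the labels give. The authors made the intensity values on a linear scale with Agilent Feature Extraction 10.5.1.1, with background correction, and the design gives mm9 probe positions, per the file headers. No normalization between arrays is recorded there. The deposited series matrix equalled the processed signal at all 45018 spots of each array, with column medians of 82.7 (marrow WT), 85.4 (marrow KO), 93.0 (spleen WT) and 37.9 (spleen KO). It is thus linear, without centring, and no sample column was left over (0 columns).

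Outlier-marked spots (72 to 85 of 43379 gene spots on an array) were removed, and no spot was saturated (0). Processed signals were scaled to each array's 75th percentile on the log2 scale and averaged over the spots of each probe. The brightest probe by the mean over the arrays stood for a gene. Probes were named by accession through a RefSeq table of GRCm38.p6, used for names only (25097 probes), by a current symbol (6333) or by the file's own name (9744). A gene was measured if well above background on at least 1 array of a comparison, with a lower bound where it was so on 1 array only.

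The chosen genes and all lists were set with earlier results of these data known. Genes named were all chosen genes with all their probes and others drawn, not exhaustively, from the 3 genes with the largest measured KO minus WT difference in each tissue per list, and Mapk3, Mapk8, Mapk14, Mapkapk2, Cnot1, Dusp7, Fos, Jun and Egr1; 1 further gene of the rule is not reported here. The 7 lists of cell markers covered B cells, neutrophils, macrophages, T cells, erythroid cells, plasmacytoid dendritic cells and NK cells. R 4.3.3 with limma 3.58.1, and Python 3.11.15 with pandas 2.3.3, were used. The limma step was run on simulated data with large genotype changes, equal in both tissues, and a noise level set by hand. That run does not show how the fit performs on these data. Alternatives were normexp background (offset 50), quantile normalization, cyclic loess, median scaling, the median over probes, the 3′ most probe, no background filter, the series matrix and a 1.5-fold threshold. Centring by probe GC in 5 bins was added after seeing the data. The number of arrays limits the precision.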

Additional observations from a re-analysis of the deposited data

Results flagged for a closer look

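For 5 of the 9 genes the KO minus WT difference of the brightest probe had opposite signs in the tissues, each beyond the SD that repeated spots give. By the same rule 25.3% of 16516 genes measured on all 4 arrays had opposite signs, and 17.9% were lower in marrow KO and higher in spleen KO, as these 5 were. With 1 array per group, the difference between tissues was not tested. Dusp10 was at −0.93 in the marrow and 2.33 in the spleen, the widest of these gaps, and both signs held under all 9 other ways of processing. Dusp6 was at −0.25 and 1.39, with the same signs under all 9. Dusp10 and Dusp6 have 1 probe each, so the series matrix, the background filter and both probe choices could not change their values. Dusp16 was at −0.12 and 1.25, and its marrow sign turned to 0.03 under cyclic loess. The marrow value is close to the spot SD of 0.108. The third and dimmest Dusp16 probe gave 0.26 and 0.15, the same sign in both tissues. Dusp2 was at −0.48 and 0.37, and Zfp36l1 at −0.32 and 0.20; for both the spleen sign depended on the scaling.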

How the results depend on the processing

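Of the 9 other ways of processing, the series matrix and no background filter each moved 0 of 36 differences of the 9 genes. They could move none, as the matrix equals the processed signal and all 14 probes were above background. For the 5 genes with 1 probe, the median over probes and the 3′ most probe also return the main value. Among the 9 genes over the 4 comparisons, 17 differences were at least 2-fold. Of these, 17 kept their sign and 13 stayed at least 2-fold under all 9 other ways of processing. The other 4 fell below 2-fold: Dusp4 in spleen KO minus WT to 0.90 (median over probes), Dusp6 to 0.66 (quantile normalization) and 0.47 (cyclic loess), Dusp16 to 0.78 (GC centring), and the Dusp16 difference between WT tissues to 0.11 (median over probes and 3′ most probe), 0.94 (median scaling) and 0.96 (normexp). At 1.5-fold, 2 genes were higher and 3 lower in marrow KO (13.98% and 14.8% of all genes), 2 lower in spleen KO (22.4%) and 1 lower in KO spleen against KO marrow (21.0%). Genes with a limma adjusted p under 0.05 numbered 10, or 629 with normexp, 443 with median scaling, 593 without the background filter, 2 with quantile normalization and 0 with cyclic loess (1211 higher and 900 lower at an unadjusted p under 0.05). The pathway lists then gave 7 higher and 4 lower with normexp, and 5 higher and 0 lower both with median scaling and without the filter. The cause was not tested. In the spleen, 57.9% of genes at least 2-fold apart were higher in KO, but 79.8% with median scaling, which moved the median of all genes to 0.69, 69.9% with normexp, 41.9% with the median over probes and 36.9% with GC centring. In the marrow the share was 62.9%, 75.2% with normexp, 75.3% with cyclic loess, 52.0% without the filter and 48.6% at 1.5-fold. Between WT tissues it was 49.5%, or 38.8% with median scaling, and between KO tissues 53.1%, or 65.1% with median scaling and 40.9% with GC centring. No paired analysis was possible because each group holds 1 array and the labels carry no replicate numbers, apart from the limma fit itself, whose tissue term sets KO against WT within each slide. With 1 array per group no array could be left out. Signals under 100 on at least 1 array limit Zfp36l2, the second Dusp4 probe and the third Dusp16 probe.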
